A study of Mus musculus with 14 samples.

Results

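The box H/ACA small nucleolar RNA (snoRNA) and small Cajal body RNA (scaRNA) genes were followed in RNA from whole mouse embryo heads lacking Zcchc8. Members were the loci of the deposited tables with at least 1 name starting with Snora or Scarna, leaving out 4 loci that also carried the name of a non-coding snoRNA host gene (Snhg). This gave 40 of 67811 loci. Of these, 18 carried small RNA names alone and 22 carried further names, in most cases that of the gene in whose intron the small RNA lies. Both kinds were kept apart, because the value of a shared locus also counts the messenger RNA of the other gene.

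Heads, brains included, were taken at E12.5, a stage of embryonic brain growth, on the C57BL/6J background. The groups were Zcchc8-/- (KO, 6 libraries), Zcchc8+/- (HET, 3 libraries) and Zcchc8+/+ (WT, 5 libraries). No further allele or treatment is named in the labels, and the sources used here do not state which stretch of Zcchc8 the allele changes. Libraries were made with a stranded mRNA kit, which selects polyadenylated RNA. The values below are therefore read as polyadenylated RNA and not as the mature small RNAs, which carry no poly(A) tail. How much untailed RNA was carried over is not known. Whether libraries of a group come from separate embryos is not stated, and p-values then measure only the spread between libraries, which may be technical. Values are FPKM, fragments scaled to transcript length and sequencing depth, and the depth itself is unknown.

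Box H/ACA RNAs fold into hairpins joined by a hinge (box H) and end shortly after the letters ACA. Together with dyskerin (Dkc1), Nop10, Nhp2 and Gar1 they direct pseudouridylation of ribosomal RNA, and the scaRNAs, some of which are of the box C/D or the mixed type, direct modification of spliceosomal RNAs in Cajal bodies. Most are cut out of introns of host genes by exonucleases that stop at the bound proteins. ZCCHC8 is part of the nuclear exosome targeting complex, which delivers short unprocessed nuclear RNA to the RNA exosome. The question asked of the data was which of these loci had more or less polyadenylated RNA without Zcchc8.

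The 4 name-alone loci whose values passed the test against WT or against HET are shown first, as annotated RNA sequences from GENCODE M21 (GRCm38, the build named mm10 in the submitters' notes), written as DNA from 5′ to 3′. In the 3 Snora sequences the capitals mark the match to ANANNA (N is any base) nearest the middle, the consensus of box H, and the ACA that stands 3 bases before the annotated end. In Scarna2, whose human counterpart is a box C/D guide, the capitals mark every TGATGA and CTGA, the consensus letters of boxes C and D. Snora16a lies at chr4:132309465-132309600 (plus strand), Snora20 at chr17:12922790-12922917 (plus strand), Snora41 at chr1:63179004-63179135 (plus strand) and Scarna2 at chr3:108554338-108554751 (minus strand), of which bases 315 to 414 are shown, chr3:108554338-108554437.
Snora16a: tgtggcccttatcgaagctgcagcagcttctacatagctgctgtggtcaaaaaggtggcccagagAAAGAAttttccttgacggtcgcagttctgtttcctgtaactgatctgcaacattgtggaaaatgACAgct
Snora20: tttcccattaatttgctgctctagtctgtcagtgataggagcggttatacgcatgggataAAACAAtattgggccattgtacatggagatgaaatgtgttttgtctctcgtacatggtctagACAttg
Snora41: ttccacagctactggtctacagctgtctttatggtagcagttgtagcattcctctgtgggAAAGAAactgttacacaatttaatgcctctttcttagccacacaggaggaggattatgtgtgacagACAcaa
Scarna2: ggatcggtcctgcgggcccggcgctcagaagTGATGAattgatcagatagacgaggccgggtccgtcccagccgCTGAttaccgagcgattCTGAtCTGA

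Motifs were read on the RNA strand only, and of 2 annotated entries named Snora16a only the one shown was used. ACA stood 3 bases before the end in 29 of the 32 Snora sequences of the members, against 19.3% of all 1558 snoRNA and scaRNA transcripts of that annotation and 25.5% of those 100 to 160 bases long. It did so in 2 of 9 Scarna sequences. ANANNA was found in all 32 Snora sequences, but also in 91.8% of all 1558 transcripts, so it separates little. The whole Scarna2 held TGATGA once and CTGA 4 times, 3 of them in the stretch shown, where 26.5% and 79.3% of all transcripts hold them. The Snora sequences were 121 to 184 bases long with a median of 132.5, and Scarna2 with 414 bases was the longest member.

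The position of the small RNA went with the kind of locus. Of the 18 name-alone RNAs, 16 lay inside an annotated gene on the same strand, and only 1, Snora16a, overlapped an exon of any transcript of it. Of the 23 small RNAs in shared loci, 22 lay inside such a gene and 17 overlapped an exon of at least 1 of its transcripts. Snora78 lies antisense to Rps2, Snora57 to Lbhd1 and Snora23 to 1600010M07Rik, and without a stated strand setting fragments of such partners cannot be told apart. Snora20 lies in an intron of Tcp1, a chaperonin subunit gene, and Snora41 in one of Eef1b2, a translation elongation factor gene. Snora16a lies in Snhg12, a non-coding host gene, and 2 of the 10 Snhg12 transcripts have an exon over it. Scarna2 lies in no annotated gene, and its locus has the length of the annotated RNA itself, 414 bases.

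Zcchc8 RNA was between 9.27 and 20.6 FPKM in KO libraries, 24.0 and 27.2 FPKM in HET libraries, and 36.6 and 42.3 FPKM in WT libraries (KO minus WT log2 difference -1.39, SE 0.15, limma-trend adjusted p = 2.1e-06). All 7 brain and neural progenitor markers and all 4 neuron markers found were at 1 FPKM or more in every WT library. Of the progenitor markers 1 was called higher in KO, and 0 of the neuron, blood (4) and pigment cell (3) markers were called. Markers of some other cell types of the head moved with genotype. Of 3 markers each, KO was lower at 2 for lens, 2 for skeletal muscle, 3 for surface epithelium and 2 for cartilage. The summed surface epithelium level was 34.7 to 50.4 FPKM in KO and 59.3 to 90.0 FPKM in WT libraries, the lens level 19.8 to 89.6 and 64.0 to 91.1 FPKM, the muscle level 8.76 to 43.8 and 31.1 to 60.1 FPKM, and the cartilage level 93.4 to 184 and 137 to 201 FPKM. In whole heads, fewer cells of a type and less RNA per cell cannot be told apart, and the part of these shifts in the results below was not tested. KO libraries also had more loci above 0 FPKM in all, 28310 to 32667 against 26902 to 27622 in WT libraries.

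Among name-alone loci, Snora16a and Scarna2 rose in KO heads, Snora20 was called higher as well, and 0 fell. To be tested, a locus had to reach 0.5 FPKM in 3 or more libraries, which 14 of the 18 did. A locus was called when the limma-trend p, adjusted over all 18217 tested loci by the Benjamini-Hochberg method, was under 0.05. Snora20, Snora21, Snora30 and Snora62 reached 0.5 FPKM in 3 libraries only with their KO libraries counted. Those of them at 0 in all other libraries, Snora20, Snora21 and Snora62, had to lie higher in KO, so their direction is no result. Of the other 10, 2 were higher and 0 lower. Over all tested loci 19.0% were called higher in KO and 5.61% lower, and over other loci with a single name 13.3% and 6.42%, with loci that entered through KO alone included in these shares. Over all loci the split was 3463 higher and 1022 lower, but 2338 higher and 3801 lower after quantile normalization. In the authors' log2 matrix it was 6969 higher and 269 lower, so it depends on scaling. Snora16a and Scarna2 were called higher after quantile normalization too, and so was Snora20, whose direction is no result. At an unadjusted p under 0.05, 3 of these 10 were higher and 0 lower, beside 4119 higher and 2157 lower over all loci.

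Snora16a had the highest mean FPKM of the name-alone loci in KO libraries. Its FPKM was 63.1, 142, 134, 110.1, 144 and 148.5 in KO libraries, 11.4, 5.90 and 41.8 in HET libraries, and 12.2, 9.69, 12.7, 12.6 and 22.7 in WT libraries. Every KO library lay above every HET and every WT library. The mean was 124 ± 32.7 FPKM in KO (SD, n = 6) and 13.98 ± 5.03 FPKM in WT (SD, n = 5), an 8.85-fold ratio. The log2 difference was 3.14 (SE 0.43, limma-trend adjusted p = 9.0e-05), and over all tested loci 15.3% had every KO library above and 1.99% every KO library below every WT library, against 2 and 0 of the 34 tested members. HET libraries overlapped WT libraries, and HET5 with 41.8 FPKM stood above all WT libraries.

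Scarna2 had 3.07, 5.33, 2.67, 6.07, 6.87 and 7.77 FPKM in KO libraries, 2.15, 1.47 and 1.63 FPKM in HET libraries, and 2.80, 0.847, 1.02, 1.43 and 2.05 FPKM in WT libraries. All KO libraries but KO3 were above the highest WT library, WT1. The means were 5.30 ± 2.05 FPKM in KO (SD, n = 6) and 1.63 ± 0.801 FPKM in WT (SD, n = 5), a 3.25-fold ratio with a log2 difference of 1.66 (SE 0.32, limma-trend adjusted p = 0.0010).

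Snora20 had 28.0, 26.05, 33.5, 0, 13.5 and 4.63 FPKM in KO libraries, and was listed at 0 in all 3 HET and all 5 WT libraries. It was thus above 0 in every KO library but KO4. In tables without counts a listed 0 at a short locus may be a failed estimate and not a lack of fragments, here and at Snora30, Snora41, Snora21 and Snora62, and the files do not tell which. No fold can be given against a group at 0. On the log2(FPKM + 0.1) scale the difference was 6.20 (SE 1.25, limma-trend adjusted p = 0.0021), a number that depends on the 0.1 added and was 3.51 with 1 added. As the locus was tested only because of its KO values, this p repeats that choice.

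**Figure D1:**
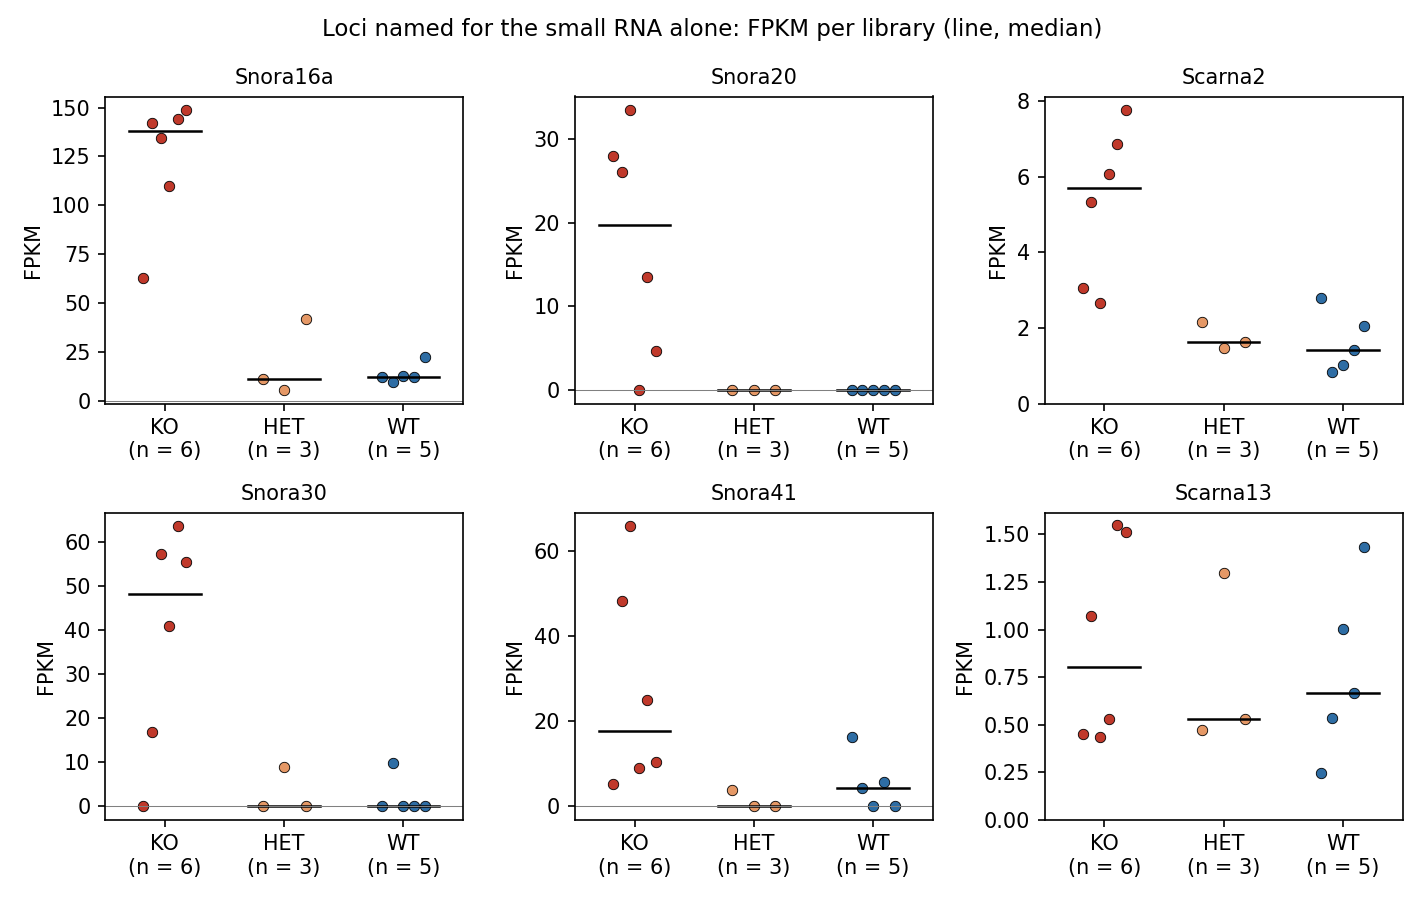
FPKM (y axis, linear, own scale per panel) of 6 name-alone loci in every library, for KO (n = 6), HET (n = 3) and WT (n = 5); each point is a library and each line the group median. Snora16a has 63.1 to 148.5 FPKM in KO and 9.69 to 22.7 FPKM in WT libraries, Snora20 is at 0 in every HET and WT library, and Scarna13 overlaps between the groups.

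Differences at the remaining name-alone loci did not pass the threshold, and all of these loci but Scarna13 were listed at 0 in 3 or more libraries. Snora30, in an intron of the chromatin remodeller gene Srcap, had 0, 16.7, 57.2, 40.8, 63.5 and 55.4 FPKM in KO libraries. It was above 0 in 1 of 3 HET libraries (HET4, 8.90 FPKM) and in 1 of 5 WT libraries (WT2, 9.72 FPKM). Thus 5 of 6 KO libraries exceeded every WT and HET library, and KO1 was at 0. The log2 difference was 5.95 (SE 2.05, limma-trend adjusted p = 0.0550), at a locus tested only because of its KO values. The adjusted p of Snora30 was 0.0201 without WT2, 0.0439 without HET4 and 0.00471 without KO1, so that the choice of libraries decides this call.

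Snora41 had 5.17, 48.2, 65.7, 8.82, 25.0 and 10.3 FPKM in KO libraries, 3.75, 0 and 0 FPKM in HET libraries, and 16.1, 4.21, 0, 5.52 and 0 FPKM in WT libraries. It was above 0 in all KO libraries, and 3 of them lay above the highest WT library. Against WT it differed by 3.81 on the log2 scale (SE 1.58), which did not pass (limma-trend adjusted p = 0.110).

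Snora21 lies within the ribosomal protein gene Rpl23 and Snora62 within Rpsa. Snora21 had 5.85 FPKM in KO3, 12.51 in KO4 and 2.44 in KO6, and Snora62 had 3.84 in KO2, 8.0 in KO4 and 5.52 in KO5, each with 0 in the other KO libraries and in every HET and WT library. Their limma-trend adjusted p-values were 0.104 and 0.0971. That of Snora62 was 0.0466 without KO3, with its direction fixed by the zeros in WT libraries. Counting Snora20 and the untested Snora47, with 2.94 FPKM in KO4 and 2.30 in KO6, 4 of the 18 name-alone loci were listed above 0 in KO libraries only, and 0 in HET or WT libraries only, with the same doubt about listed zeros. The same shares over all loci were not computed, so these counts are not read as a trait of these RNAs. The number above 0 was 7 to 11 per KO library (median 9.5), 5 to 9 per HET library and 4 to 8 per WT library (median 7), beside the larger number of loci above 0 in KO libraries overall.

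The other 7 tested name-alone loci overlapped between the groups. Scarna13, which resides in an intron of Snhg10 and whose human counterpart holds a tandem of H/ACA units, was above 0 in all 14 libraries, at 0.434 to 1.55 FPKM in KO and 0.248 to 1.44 FPKM in WT libraries (log2 difference 0.23, SE 0.42, limma-trend adjusted p = 0.757). Snora57 was above 0 in 4 of 6 KO, 3 of 3 HET and 2 of 5 WT libraries, at no more than 8.40 FPKM, with a log2 difference of 1.30 (SE 1.74, limma-trend adjusted p = 0.662). Snora23, in an intron of the importin gene Ipo7, reached 5.57 FPKM in KO5 and 5.42 FPKM in WT3, with a log2 difference of -0.20 (SE 1.28, limma-trend adjusted p = 0.936).

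Snora31 (in Tpt1), Snora78 (in Snhg9), Snora69 (in Rpl39) and Scarna8 (in Haus6) had negative log2 differences of -2.20 (SE 2.35), -1.67 (SE 2.14), -0.82 (SE 2.29) and -0.39 (SE 1.82). Their limma-trend adjusted p-values were between 0.569 and 0.912. Each was above 0 in 1 or 2 KO libraries and in 1 or 2 WT libraries. Snora31, for example, had 15.8 FPKM in KO6 alone among KO libraries, and 31.1 FPKM in WT1 and 44.9 FPKM in WT4. Scarna3b, Scarna9 and Snora35 were listed at 0 in every library.

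Only 3 of the 14 tested name-alone loci, Snora16a, Scarna2 and Scarna13, were above 0 in all 14 libraries. Where a locus stepped off 0, its smallest value was often large, for instance 15.8 FPKM for Snora31 and 8.90 FPKM for Snora30, so these short loci give coarse values. The median log2 difference over the 14 was 1.48, against -0.0019 over all tested loci. It was 0.01 over the 10 that met the filter without their KO libraries, and no bound can be set for loci at 0 in WT.

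**Figure D2:**
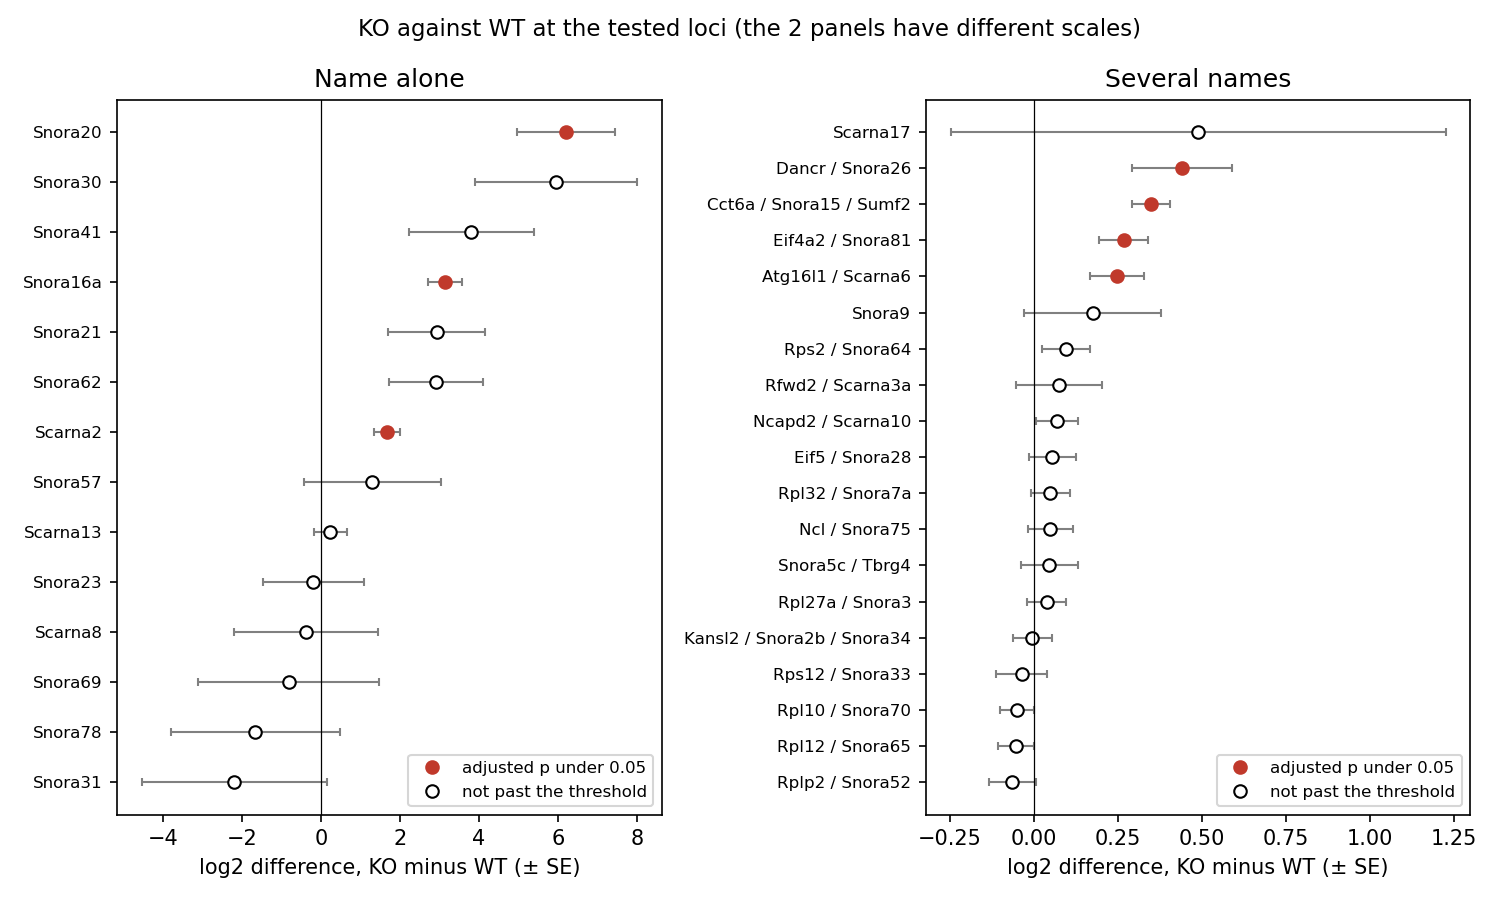
Log2 difference of KO minus WT (x axis, with its SE) for the 14 tested name-alone loci (left) and 19 of the 20 tested loci with several names (right), on different scales; filled points passed an adjusted p of 0.05. Name-alone loci spread between -2.20 and 6.20 with wide errors, and loci with several names lie between -0.06 and 0.49.

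None of the loci of genes around the name-alone RNAs was called. For 11 tested name-alone loci a separate locus of the surrounding gene was tested as well, and 0 of these 11 were called between KO and WT by limma-trend, with 0 at an unadjusted p under 0.05. Over all tested loci 19.0% were called higher and 5.61% lower, and 34.45% had an unadjusted p under 0.05. Their log2 differences had a median of 0.05 and ran from -0.13 for Snhg12 to 1.84 for Snhg9, a weakly expressed locus with an adjusted p of 0.209.

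Snora16a stood at 275 to 520% of the FPKM of the Snhg12 locus in KO libraries, and at 31.0 to 77.1% in WT libraries. The Snhg12 locus itself, which also holds Snora44, Snora61 and Snord99, averaged 28.8 ± 4.53 FPKM in KO (SD, n = 6) and 31.2 ± 1.34 FPKM in WT (SD, n = 5), with a limma-trend adjusted p of 0.334. The ratio differed in an exact permutation test (two-sided, 462 permutations), with p = 0.00216, the smallest they can give, or 0.00432 adjusted over the 2 ratios tested, which were those of called loci. As Snora16a was picked for its call, with every KO library above every WT library, this p repeats that call and is no separate result. Snora20 stood at 0 to 10.1% of Tcp1 in KO libraries and at 0% in all WT libraries, where the ratio is 0 whatever the level of Tcp1. Its exact permutation p of 0.0281 (two-sided, also 0.0281 adjusted) thus only repeats the listed zeros. Tcp1 averaged 294 ± 29.0 FPKM in KO (SD, n = 6) and 302 ± 16.1 FPKM in WT (SD, n = 5). Snora30 stood at a median of 89.7% of the Srcap locus in KO libraries and 0% in WT libraries. That locus also holds Phkg2, RP24-159C12.7 and Tmem265, so its values are not those of Srcap alone. Snora41 stood at a median of 2.94% of Eef1b2 in KO libraries and 0.672% in WT libraries. The ratios of Snora30 and Snora41 were not tested.

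**Figure D3:**
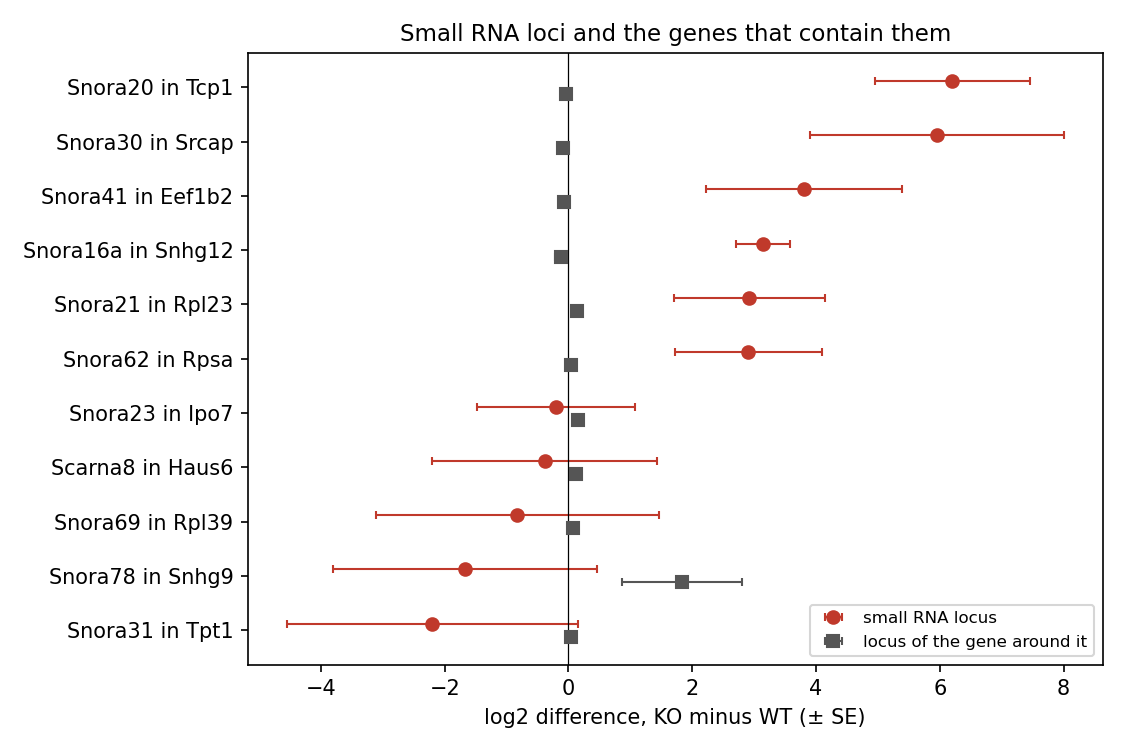
Log2 difference of KO minus WT (x axis, with its SE) for 11 name-alone loci (circles) and for the locus of the gene that contains each (squares). Snora20, Snora30, Snora41 and Snora16a lie between 3.14 and 6.20, and the loci of Tcp1, Srcap, Eef1b2 and Snhg12 between -0.13 and -0.05. The Srcap locus also holds Phkg2, RP24-159C12.7 and Tmem265. Snora21 and Snora62 lie at 2.92 and 2.91, and Snora31, Snora78, Snora69, Scarna8 and Snora23 between -2.20 and -0.20. Of the small RNA loci only Snora16a and Snora20 were called. Snora20, Snora21, Snora30 and Snora62 were tested only because of their KO values. Snhg9 at 1.84 is the host farthest from 0.

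Of 22 loci that hold further names, 20 were tested, 4 rose in KO against WT and 0 fell, or 20.0% higher beside the 19.0% over all loci and the 12.8% over the 2135 other tested loci with several names. All 4 rises were small. By limma-trend, 0 were lower at an unadjusted p under 0.05 as well. The median log2 difference was 0.05, and -0.01 over the other loci with several names. The untested pair, the loci of Snora36b with Mir664 and of Snora19 with Mir3084-2, was at 0 in every library.

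The locus of Cct6a, Snora15 and Sumf2 had the smallest adjusted p of the shared loci. Cct6a encodes a subunit of the cytosolic chaperonin and Sumf2 a protein related to the sulfatase-modifying enzyme. It had 442, 488, 493.5, 537, 518 and 506 FPKM in KO libraries, 368, 372 and 350.5 FPKM in HET libraries, and 346, 381, 420, 395 and 412 FPKM in WT libraries. Every KO library was above every HET and WT library. The means were 497 ± 32.3 FPKM in KO (SD, n = 6) and 390.5 ± 29.2 FPKM in WT (SD, n = 5), with a log2 difference of 0.35 (SE 0.06, limma-trend adjusted p = 1.8e-04).

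The locus of Eif4a2, an RNA helicase gene of translation initiation, also holds Snora81, Snord2 and the entries AC154540.1, Gm24201, Gm24616 and Gm26447. It had 226, 237, 307, 238, 250.4 and 290.1 FPKM in KO libraries, 198, 177 and 196 FPKM in HET libraries, and between 202 and 226.5 FPKM in WT libraries, and 5 of 6 KO libraries were above all WT libraries. The log2 difference was 0.27 (SE 0.07, limma-trend adjusted p = 0.0140).

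The rises at the loci of Atg16l1 with Scarna6 and of Dancr with Snora26 were near the threshold. Atg16l1, an autophagy gene, had 15.1 to 19.7 FPKM in KO and 12.8 to 17.0 FPKM in WT libraries (log2 difference 0.25, SE 0.08, limma-trend adjusted p = 0.0350). Its adjusted p lay between 0.0568 and 0.104 without WT1, WT2, WT4, WT5, KO2, KO3, KO5 or KO6. Dancr, a long non-coding RNA, had 12.3 to 24.4 FPKM in KO and 10.7 to 15.3 FPKM in WT libraries (log2 difference 0.44, SE 0.15, limma-trend adjusted p = 0.0414). Its adjusted p lay between 0.0522 and 0.117 without WT1, WT2, WT4, WT5, KO3, KO4, KO5, KO6 or any 1 HET library. Leaving out WT1, WT2, WT5, KO3, KO5 or KO6 left 2 calls among the shared loci, those of Cct6a and Eif4a2.

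Among the shared loci were those of ribosomal protein genes. The 7 loci with Rps12, Rps2, Rpl12, Rpl32, Rpl27a, Rplp2 and Rpl10 had WT means of 498 to 1605 FPKM. Their log2 differences in KO against WT lay between -0.06 and 0.09, with limma-trend adjusted p-values of 0.392 to 0.789. Of these loci 0 of 7 were called, beside 19.0% higher and 5.61% lower over all tested loci. At an unadjusted p under 0.05 there were 0, beside 34.45% of all tested loci. In these values the small RNA and the messenger RNA cannot be told apart. In the authors' log2 matrix the Rpl10 locus was called lower in KO against HET.

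The other 5 shared loci without a Scarna name, those of Ncl with Snora75, RP23-69P8.2 (where the annotation has Snhg15) with Snora9, Tbrg4 with Snora5c, Eif5 with Snora28 and Kansl2 with Snora2b and Snora34, had log2 differences between -0.00 and 0.18 and adjusted p-values of 0.601 to 0.971. WT4 decides the Snora9 locus: it had 19.3 FPKM there against 8.18 to 9.43 FPKM in the other WT libraries, and without WT4 the log2 difference was 0.40 (limma-trend adjusted p = 0.0479). The Eif5 locus differed between KO and HET by 0.11 (adjusted p = 0.414), and by 0.17 without KO5 (adjusted p = 0.0444). Among scaRNA loci, that of Rfwd2 and Scarna3a had 84.5 to 167 FPKM in KO and 101 to 128 FPKM in WT libraries (log2 difference 0.07, SE 0.13). That of Ncapd2, a condensin subunit gene, with Scarna10 had 90.0 to 117 FPKM in KO and 90.4 to 109 FPKM in WT libraries (log2 difference 0.07, SE 0.06). Neither passed the test, with limma-trend adjusted p-values of 0.738 and 0.486.

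Scarna17, whose human counterpart is a box C/D guide, shares its locus with Gm23119 only. It had 46.9, 47.9, 19.9, 17.0, 54.0 and 30.5 FPKM in KO libraries, 0.496, 11.01 and 14.1 FPKM in HET libraries, and 41.4, 16.1, 31.5, 20.4 and 16.3 FPKM in WT libraries. KO and WT libraries overlapped (log2 difference 0.49, SE 0.74, limma-trend adjusted p = 0.699), and the HET libraries were the lowest 3 of the 14.

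**Figure D4:**
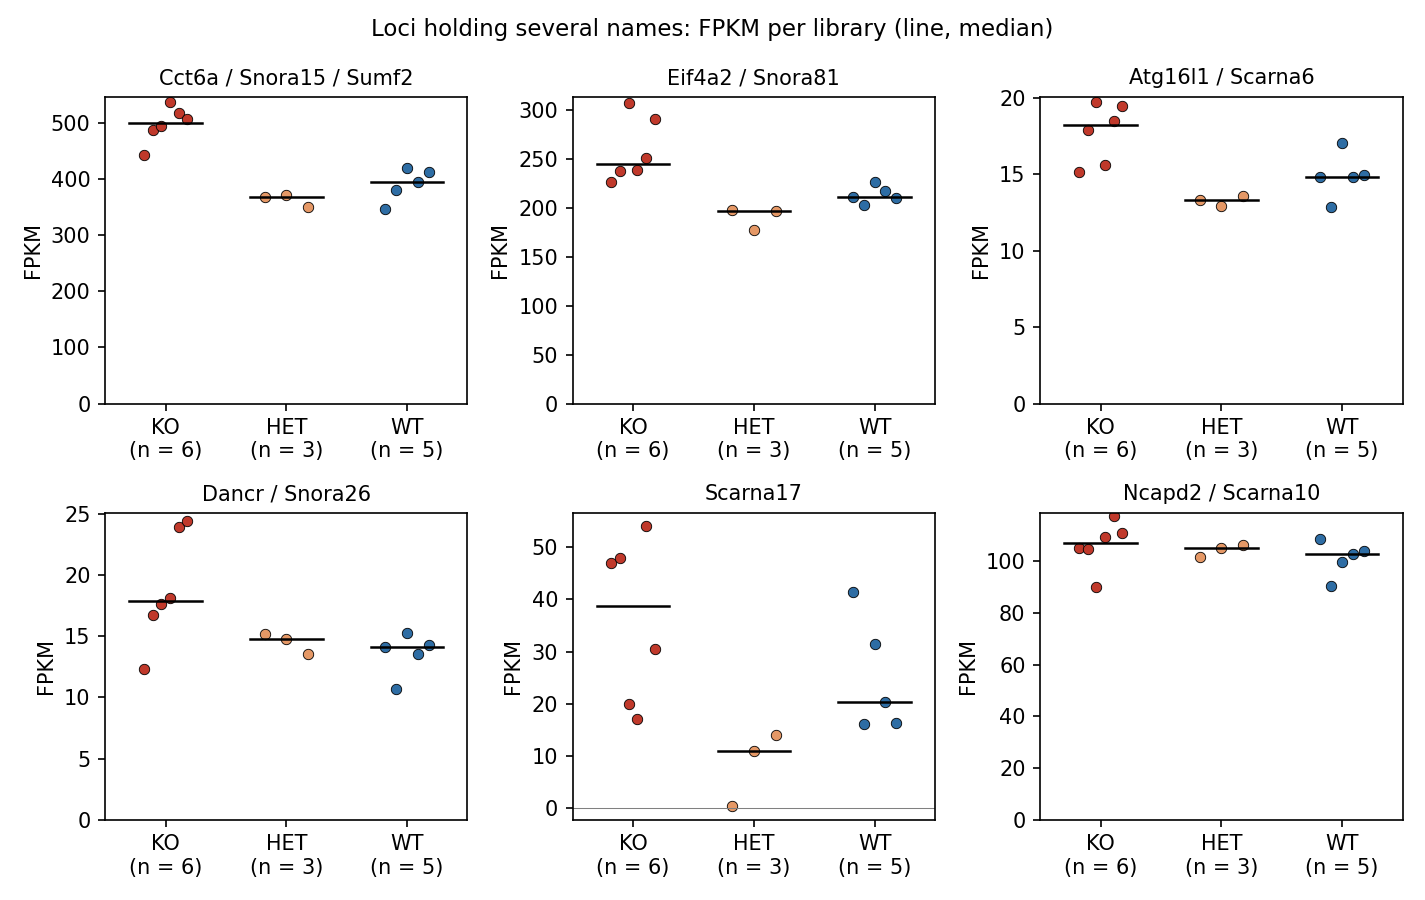
FPKM (y axis, linear from 0, own scale per panel) of 6 loci that hold several names, for KO (n = 6), HET (n = 3) and WT (n = 5); each point is a library and each line the group median, and only the longer gene names are written. The locus of Cct6a, Snora15 and Sumf2 has 442 to 537 FPKM in KO and 346 to 420 FPKM in WT libraries, and that of Ncapd2 and Scarna10 overlaps between the groups.

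Between HET and WT heads, 0 of the 34 tested member loci were called by limma-trend in either direction, beside 1 call (0.00549%) higher and 0 (0.0%) lower over all 18217 loci. At an unadjusted p under 0.05 there was 1 member, the Scarna17 locus, at a log2 difference of -2.37 (SE 0.89), or 2.94% of members beside 1.94% of all loci. The log2 difference of HET from WT was 0.08 (SE 0.52) for Snora16a and 0.20 (SE 0.39) for Scarna2, and with 3 HET libraries these intervals are wide.

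KO against HET, which uses the same KO libraries as KO against WT, gave 8 member loci higher and 0 lower, or 4 of 14 name-alone (28.6%) and 4 of 20 shared loci (20.0%), beside 17.9% higher and 4.36% lower over all loci. The 14 include Snora20, Snora21, Snora30 and Snora62, which met the filter only with their KO libraries counted, and Snora20 is among the calls. Loci that entered through KO alone are also included in the shares over all loci. At an unadjusted p under 0.05 the limma-trend counts were also 8 and 0, beside 3956 higher and 1796 lower over all loci. Snora16a differed by 3.06 (SE 0.50, limma-trend adjusted p = 4.9e-04), Snora20 by 6.20 (SE 1.46, adjusted p = 0.0072, or 0.0595 with only these groups compared; it was tested only because of its KO values), Scarna2 by 1.46 (SE 0.38, adjusted p = 0.0103) and Snora41 by 5.77 (SE 1.85, adjusted p = 0.0434). The shared loci were those of Cct6a (0.45, SE 0.07), Eif4a2 (0.43, SE 0.09), Atg16l1 (0.41, SE 0.09) and Scarna17 (2.86, SE 0.86, adjusted p = 0.0322). The adjusted p of Scarna2 was 0.0564 without HET4. That of Snora41 was 0.0533 without WT2, 0.183 without HET4, 0.169 without HET5 and 0.0607 to 0.0743 without KO2, KO3, KO4, KO5 or KO6. That of Scarna17 was 0.0793 without HET3, where its difference was 1.39, and 0.0528 to 0.0586 without KO1, KO2, KO5 or KO6.

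Box C/D snoRNA loci, the other large class of modification guides, were mostly out of reach. Of 50 loci with Snord names alone, 4 were above 0 in any library and 2 were tested, against 15 and 14 of the 18 H/ACA and Cajal body loci. Their annotated RNAs had a median length of 94 bases, against 132 for the Snora names of the name-alone loci. Of the 2 tested, 1 was higher in KO against WT and 0 lower (median log2 difference 2.19). Outside KO, loci with Snord names alone were above 0 only in HET4 (1 locus), WT1 (2 loci) and WT5 (1 locus). At least 1 of the 2 thus met the filter only with its KO libraries, and this call and median are not read as a result. Of 24 tested Snord loci with further names, 3 were higher and 1 lower in KO, with a median log2 difference of 0.01. The difference between the classes was not tested.

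Genes for the proteins that bind and process these RNAs were read beside the 13.3% higher and 6.42% lower of other single-name loci. Some of them, Srrt included, lie in loci with several names, where the shares were 12.8% and 5.25%. Over all tested loci the shares were 19.0% and 5.61%. Of 14 genes for H/ACA particle and assembly proteins, all tested, 1 was higher in KO against WT and 0 lower. The one was Nop10, at 44.9 ± 3.51 FPKM in KO (SD, n = 6) and 34.5 ± 2.36 FPKM in WT (SD, n = 5), a log2 difference of 0.38 (SE 0.06, limma-trend adjusted p = 1.2e-04). Dkc1, Nhp2 and Gar1 had log2 differences of -0.01 (SE 0.09), -0.01 (SE 0.08) and 0.06 (SE 0.07). Of 26 tested genes for trimming, tailing and decay of such RNAs, 1 was higher and 2 lower, of which Zcchc8 is one. Srrt, which links the cap-binding complex to RNA decay and shares its locus with Mir7036, averaged 143 ± 9.05 FPKM in KO (SD, n = 6) and 116 ± 9.26 FPKM in WT (SD, n = 5), a log2 difference of 0.31 (SE 0.06, adjusted p = 0.0013).

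Toe1, a deadenylase gene, averaged 13.5 ± 0.746 FPKM in KO (SD, n = 6) and 14.9 ± 0.666 FPKM in WT (SD, n = 5), a log2 difference of -0.14 (SE 0.05, limma-trend adjusted p = 0.0473). Its adjusted p lay between 0.0577 and 0.121 without WT1, WT3, WT4, WT5, KO2, KO3, KO4 or any 1 HET library, and its difference was 0.12 in the authors' log2 matrix. Parn, whose nuclease trims the tails of H/ACA RNAs, and Papd5, whose polymerase adds them, had log2 differences of 0.06 (SE 0.04) and -0.09 (SE 0.06) and were not called. Terc, the telomerase RNA, carries an H/ACA domain of its own. Its locus, shared with RP23-404J7.3, had 6.57 to 11.5 FPKM in KO, 1.17 to 1.92 FPKM in HET and 1.15 to 1.85 FPKM in WT libraries, 2.44 above WT on the log2 scale (SE 0.16, limma-trend adjusted p = 1.1e-08).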

How the data were processed

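RNA of 14 whole-head libraries was analysed. The authors deposited 1 table per library of FPKM values for 67811 loci, and a matrix of log2 FPKM values that is quantile normalized and blank where FPKM is 0. Per the submitters' processing notes, TopHat2 2.1.0, Cuffdiff, Partek, FastQC 0.10.0 and bcl2fastq were used on mm10, with no role stated, and the sources used here state neither the gene models nor the strand setting. Read counts are not in the files used, so depth and counting error are unknown. The coordinate range of a locus can span several genes, so positions come from GENCODE M21, to which all 41 small RNA names of the members matched. The name Snora16a matched 2 entries there, and the entry with the larger start coordinate was used. Which entry the deposited Snora16a values count is not known. Fragments of overlapping genes or near-identical copies, ribosomal protein genes with their pseudogenes among them, cannot be told apart.

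FPKM values were analysed as log2(FPKM + 0.1). The constant narrows differences between low values above 0. At loci with listed zeros the difference depends on the constant and can be large for that reason. That of Snora30 in KO against WT was 5.95 with 0.1 added and 3.85 with 1 added. The 18217 loci reaching 0.5 FPKM in 3 or more libraries entered 1 limma-trend fit (limma 3.58.1, R 4.3.3, robust) of the 3 genotype means without covariates, with Benjamini-Hochberg adjustment over all loci. The fit was tested on simulated data. Permutation tests enumerated all splits. Figures used matplotlib 3.10.9 and tables pandas 2.3.3. The members, lists and tests were chosen with earlier results of these data known. Named are all tested name-alone and Scarna loci, shared loci called in a contrast, Zcchc8, Terc and called genes of the protein lists; Dkc1, Nhp2, Gar1, Parn, Papd5, surrounding genes and uncalled shared loci were named in addition, with their values known. One shared locus is counted but its own values are not reported here. For a gene around a small RNA, the most abundant locus of that name was used.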

Additional observations from a re-analysis of the deposited data

Results flagged for a closer look

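Of 93 groups of KO or WT libraries checked at the loci named here, 16 had a library far from the others. The rate of about 1 in 20 by chance does not hold for groups with listed zeros. There a lone value above 0 is always flagged, so the count is not read against that rate. At 5 of the 16, all other libraries of the group were listed at 0. These were Scarna8 with 11.2 FPKM in KO1 and 19.5 FPKM in WT5, Snora30 with 9.72 FPKM in WT2, Snora31 with 15.8 FPKM in KO6 and Snora78 with 17.9 FPKM in KO4. Snora69 had 14.2 FPKM in KO4, where other KO libraries were at 0 to 5.18 FPKM, and 32.2 FPKM in WT5, where other WT libraries were at 0 to 9.04 FPKM. Snora23 had 5.42 FPKM in WT3, against 0.468 to 1.61 FPKM in the other WT libraries. Snora16a had 22.7 FPKM in WT5, against 9.69 to 12.7 FPKM in the other WT libraries, which is still below its lowest KO library at 63.1 FPKM.

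WT4 was the high library at 3 shared loci. It had 19.3 FPKM at the Snora9 locus, where other WT libraries had 8.18 to 9.43 FPKM, 823 FPKM at the Rpl12 locus, where they had 685 to 703 FPKM, and 1880 FPKM at the Rps12 locus, where they had 1480 to 1570 FPKM. The Kansl2 locus had 67.9 FPKM in KO3, against 58.2 to 61.8 FPKM in other KO libraries, and 72.4 FPKM in WT1, against 58.1 to 60.2 FPKM in other WT libraries. Dkc1 was low in KO5 with 33.3 FPKM, against 44.2 to 48.6 FPKM in other KO libraries, and Gar1 was low in WT3 with 55.0 FPKM, against 68.0 to 72.4 FPKM in other WT libraries.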

How the results depend on the processing

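Snora16a and Scarna2 were higher in KO than in WT at an adjusted p under 0.05 under all 24 alternatives, and Snora20 under the 23 that could test it, which leaves out the authors' matrix (chosen after seeing the data), where it was mostly blank. As Snora20 was listed at 0 in every HET and WT library, its direction was fixed under each of these. Snora16a ranged from 3.03 to 3.33 and Scarna2 from 1.24 to 1.96. The number of name-alone loci higher was 3 or 4 throughout, a count that in most cases includes loci tested only because of their KO values. Among shared loci, those of Cct6a and Eif4a2 were called under all 24, and the count was 2 without the filter and with only the compared groups, and 2 to 4 without any 1 library. The cause was not tested. The labels do not say what a replicate number means. Correlations of same-numbered libraries, after group means were taken off, ran from -0.114 to 0.1. They were not compared with those of other pairs, so a pairing was not tested. With the replicate block, 2 shared loci were higher in KO against WT, 5 members were higher in KO against HET, and Snora62 was called (3.49, adjusted p = 0.0487). Snora30 was called with pseudocounts of 0.5 (4.48) and 1 (3.85) and without robust moderation. Snora30 and Snora62 were tested only because of their KO values, and the direction of Snora62 was fixed by its zeros elsewhere. In the authors' matrix, where all loci shifted by 0.20, 2 loci, Rpl10 among them, were lower in KO against HET and the shared median was 0.145. Signs reversed without calls for Scarna13 (-0.806 after quantile normalization, -0.0636 without WT1, in a range of -0.0636 to 0.472 without any 1 library), Scarna3a (-0.0230 without KO3, range to 0.174), Scarna8 (1.14 without WT5, range from -1.52), Snora57 (-0.234, authors' matrix), Snora69 (0.0620 without WT2, 0.518 without WT5, range from -1.83), Toe1 (authors' matrix, 0.115 against WT and 0.0308 against HET) and Snora23 (0.180 and 0.211 with pseudocounts of 0.5 and 1, 0.353 without WT3, 0.473 without KO1 or KO3, range from -0.691). In the authors' matrix Snora23 was called at 2.03 (adjusted p = 0.0296). In KO against HET of that matrix Snora57 was called higher, where the main fit had -1.59, and so was the Dancr locus, uncalled in the main fit. Without any 1 library, the name-alone median ran from 0.853 to 1.95, the shared median from 0.0464 to 0.0710, and members higher in KO against HET numbered 6 to 9. The name-alone median includes loci tested only because of their KO values. In the main fit it was 0.01 over the 10 loci that met the filter without KO libraries.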
